A study of Homo sapiens with 10 samples.

Results

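The step from 1 to 2.5 µM olaparib was read from all cells of the population kept at 2.5 µM (T2.5) set against all cells of the population kept at 1 µM (T1), chosen by the dose written in the cell names. The members were 3873 of the 18209 cells of the series, 2312 from T1 and 1561 from T2.5. Both populations are the human line Kuramochi, which the labels call epithelial and BRCA2-mutant, and both carried that genotype and grew in the same serum-containing medium with insulin. Each was exposed to its olaparib dose until the culture was confluent. The series holds 10 such populations in all, from untreated cells (C) to 320 µM (T320), profiled by inDrop, which captures single cells in droplets and counts molecules by their identifiers (UMIs). Each population is 1 library, so a difference between doses and a difference between libraries cannot be told apart, and no test is given. Intervals printed below are 95% intervals that cover counting error only.

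Olaparib blocks the catalytic site of PARP enzymes and traps them on DNA. Cells that lack BRCA2 cannot repair the resulting breaks by homologous recombination and are usually sensitive to the drug. Programs often followed in such cells are the contractile and matrix genes of a mesenchymal state, which serum response factor and TGF-beta signalling drive in many cell types, and the immediate early genes, short-lived transcripts of transcription factors such as FOS and EGR1 that answer growth factors and stress within minutes.

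The T1 cells gave 5338688 UMIs, with a median of 2188 per cell. The T2.5 cells gave 3125808 UMIs, with a median of 1145, although the deepest 10% of T2.5 cells held more than 5267 each, against 4125 in T1. The median cell of T1 had 1237 detected genes and that of T2.5 had 761. Mitochondrially encoded genes took 7.15% of the UMIs in T1 and 8.11% in T2.5. The 2 populations shared 24 cell barcodes. Genes not listed at 0 were found in at least 23 cells of T1 and 15 cells of T2.5, so a gene listed at 0 is not a measured absence. Among markers of serous ovarian carcinoma, PAX8, a Mullerian lineage factor, stood at 544 CPM (UMIs of the gene scaled to a common library total) in T1 and 382 in T2.5. The keratin KRT8 stood at 852 and 1323 CPM. EPCAM and MUC16, usual epithelial and serous surface markers, were listed at 0 in both populations. Of the markers of other cells, the endothelial genes CDH5, KDR and FLT1 and the fibroblast receptor PDGFRA were listed at 0 in both, and the leukocyte list summed to 4.68 CPM in T1 and 4.80 in T2.5. The endothelial list summed to 162 and 244 CPM, of which TIE1 alone gave 129 and 194, the neuronal list to 84.3 and 74.2, and the mesothelial list, which shares WT1 and MSLN with serous carcinoma, to 199 and 195.

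Of 4009 genes with at least 50 CPM in T1 or T2.5, 36 (0.898%) were at least 2-fold higher in T2.5 and 43 (1.07%) were at least 2-fold lower, counted on the scale of log2(CPM + 10). All differences below are on that log2 scale, T2.5 minus T1, and the median over the 4009 genes was 0.04. The 5 genes furthest above the rest were ACTA2, ACTG2, CPA4, TAGLN and MYL9. The 5 furthest below were FOSB, NFKBIZ, NXPH2, DAPL1 and CCNL1.

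**Figure D1:**
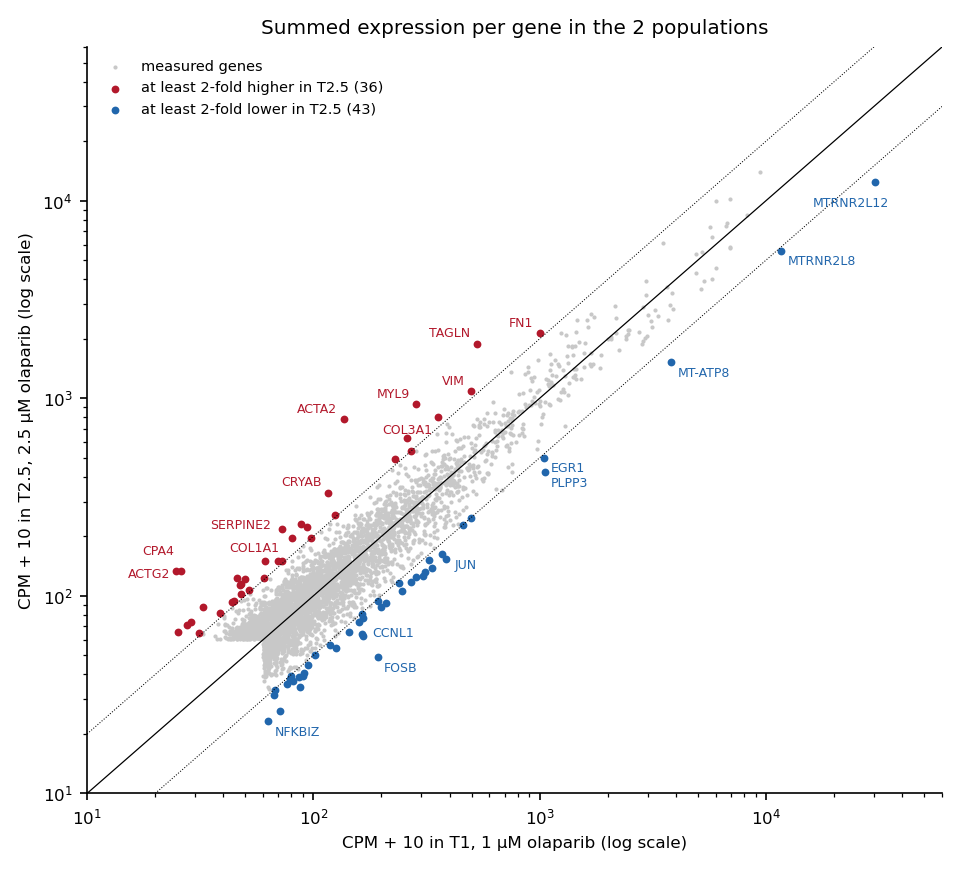
CPM + 10 of each measured gene in T1 (x axis) against T2.5 (y axis), both on log scales, with 1 point per gene and 1 library per axis. The solid line marks equal levels and the dotted lines a 2-fold difference. The 36 genes above the upper dotted line include ACTA2, TAGLN and MYL9, and the 43 below the lower one include FOSB, JUN and PLPP3.

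The promoter stretches below are shown because they hold matches to known control elements in genes from both ends of the step. ACTG2, enteric smooth-muscle actin, was among the genes higher in T2.5. EGR1, an immediate early gene, and IFIT1, an interferon-stimulated gene, were among those lower in T2.5. Each stretch is the 250 bases before the RefSeq start (GRCh38.p14), written 5′ to 3′ on the gene's strand, at chr2:73892758-73893007 (plus strand), chr5:138465229-138465478 (plus strand) and chr10:89392373-89392622 (plus strand). Capitals mark CArG boxes, the binding element of serum response factor, in the first and second, and matches to the interferon-stimulated response element in the third.
ACTG2: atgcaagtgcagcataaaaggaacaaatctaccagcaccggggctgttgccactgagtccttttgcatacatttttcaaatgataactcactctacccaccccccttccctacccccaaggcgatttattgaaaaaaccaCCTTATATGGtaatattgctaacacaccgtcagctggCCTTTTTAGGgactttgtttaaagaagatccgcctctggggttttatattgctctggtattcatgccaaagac
EGR1: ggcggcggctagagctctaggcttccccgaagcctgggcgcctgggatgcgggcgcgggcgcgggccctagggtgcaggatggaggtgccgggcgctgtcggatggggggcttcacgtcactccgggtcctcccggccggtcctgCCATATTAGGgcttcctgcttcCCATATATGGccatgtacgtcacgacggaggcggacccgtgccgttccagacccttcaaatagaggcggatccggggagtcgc
IFIT1: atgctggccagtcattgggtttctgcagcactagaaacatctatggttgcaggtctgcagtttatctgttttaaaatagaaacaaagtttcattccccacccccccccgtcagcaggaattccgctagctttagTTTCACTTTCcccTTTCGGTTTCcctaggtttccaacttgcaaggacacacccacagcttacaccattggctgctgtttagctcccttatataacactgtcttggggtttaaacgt

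The CArG boxes of ACTG2 begin 110 and 73 bases before the start, and those of EGR1 begin 105 and 83 bases before it. The CArG box was searched as CC and GG parted only by A or T, at the length marked above. No mismatch was allowed, so imperfect CArG boxes were not counted. A CArG box was found in this window, on either strand, in 1.14% of 27305 RefSeq promoters, in 1.39% of those of measured genes and in 4 of the 25 matched promoters of the measured actin and contraction genes (ACTG1, TPM4, CNN2 and FLNA). It was found in 1 of the 29 matched promoters of genes higher in T2.5 (ACTG2) and in 1 of the 28 of genes lower in T2.5 (EGR1). ACTG1, TPM4, CNN2 and FLNA were not called. Of the 4 called genes of the actin and contraction list, 2 matched a promoter, and 0 of those 2 held a perfect CArG box in this window. Imperfect boxes in those 2 promoters were not searched. TAGLN and MYL9 had no matched promoter and were not searched. The interferon-stimulated response element, searched as GAAA and GAAA parted by NN, was found in 3.07% of all promoters and 2.72% of those of measured genes, in 1 of 29 for genes that were higher (ACTA2) and in 2 of 28 for genes that were lower (IFIT1 and THOC2). The AP-1 site, searched as TGANTCA, was found in 6.596% of all promoters and 3.71% of those of measured genes, in 1 of 29 for genes that were higher (CPA4), in 1 of 28 for genes that were lower (SASH1) and in 0 of the 12 matched immediate early promoters, too few to read against that share. The E-box CACGTG was found in 3 and 2 of these promoters of higher and lower genes, against 6.49% of all and 9.59% of the measured genes. The hypoxia element ACGTG, which every E-box contains, was found in 9 of 29 and 7 of 28, against 18.7% of all and 25.6% of the measured genes. These matches are letters in a window and no measure of binding.

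ACTA2 and ACTG2 had the 2 highest differences of the 4009 genes. ACTA2, alpha smooth-muscle actin and the usual marker of myofibroblasts, gave 126 CPM in T1 (674 UMIs) and 773 CPM in T2.5 (2417 UMIs), a 6.12-fold higher level (interval 5.62 to 6.68). ACTG2 gave 14.8 and 123 CPM, 8.32-fold higher (interval 6.52 to 10.7), from 79 and 385 UMIs. TAGLN, which encodes transgelin, an actin-bundling protein of smooth muscle, gave 518 and 1878 CPM (3.63-fold, interval 3.47 to 3.80). The intervals of all 3 lay well above 2. MYL9, a regulatory light chain of myosin II, gave 274 and 921 CPM (3.36-fold, interval 3.15 to 3.58). TPM1, a tropomyosin, gave 260 and 532 CPM (2.05-fold, interval 1.90 to 2.20), which is at the line rather than beyond it. Of the 29 measured members of the actin and contraction list, 4 were called higher (ACTA2, TAGLN, MYL9, TPM1), 0 lower, and 27 stood above 0. The median difference of the list was 0.49. Widely expressed actins also stood above 0: ACTB gave 3494 and 6134 CPM (difference 0.81) and ACTG1 0.62. The listed genes as a sum went from 20480 to 32079 CPM.

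A mesenchymal list overlapped this one and 5 of its 13 measured members were called higher, with a median of 0.93. Beyond the contractile genes these were VIM and FN1. VIM, the intermediate filament vimentin, gave 487 and 1077 CPM (2.21-fold, interval 2.10 to 2.33). AXL, a receptor kinase often high in mesenchymal carcinoma cells, gave 42.3 and 92.1 CPM and stayed just under the line at 0.96. S100A4 (difference -0.45) and CDH2 (difference -0.20) stood below 0 on the same list. Epithelial genes had no common direction. KRT18 gave 340 and 653 CPM (difference 0.92) and KRT8 stood at 0.63, whereas the tight-junction gene CLDN4 stood at -0.63 and the desmosomal gene DSP at -0.61. No epithelial member of 12 was called either way.

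Matrix genes were also among those called higher in T2.5. All 14 measured members of the fibrillar collagen and collagen processing list stood above 0, 5 were called higher and 0 lower, and the median was 0.71. COL1A1, a chain of type I collagen, gave 70.6 and 187 CPM (2.64-fold, interval 2.32 to 3.01). COL3A1, type III collagen, gave 346 and 792 CPM (2.29-fold, interval 2.15 to 2.43). FN1, fibronectin, gave 992 and 2132 CPM (2.15-fold, interval 2.07 to 2.23). The intervals of COL1A1, COL3A1 and FN1 all lay above 2. COL5A1 (difference 1.02) and BGN (1.09), the proteoglycan biglycan, were the other 2. SPARC (0.78) and TNC (0.94), matricellular genes, stood under the line. FBLN5, an elastic-fibre protein outside the list, gave 22.7 and 77.4 CPM, and FSTL1, a secreted follistatin-like protein, 249 and 617 CPM. Markers of fibroblasts include COL1A1 and COL3A1, and the summed fibroblast list went from 482 to 1083 CPM with PDGFRA listed at 0 in both; the part of other cells in these levels was not tested. The basement-membrane list moved in no common direction (median 0.02, 0 of 10 called). Of 11 measured TGF-beta targets, TAGLN and TPM1 were called higher and the median was -0.04; CTGF stood at 0.62, ID1 at -0.27 and ID3 at -0.28.

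**Figure D2:**
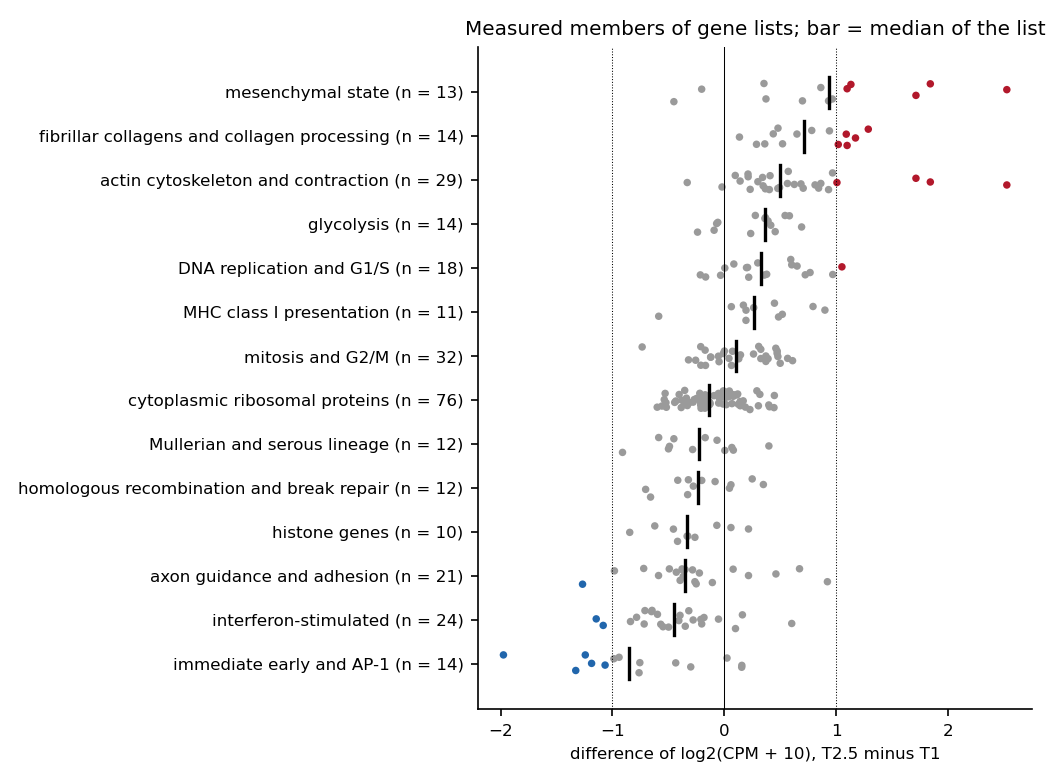
Difference of log2(CPM + 10), T2.5 minus T1, for each measured member (points) of 14 gene lists, with the list median as a bar and the 2-fold limits as dotted lines. Red and blue points passed the 2-fold limit. The mesenchymal, collagen and contractile lists have medians of 0.93, 0.71 and 0.49, and the immediate early and interferon lists of -0.85 and -0.45.

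Genes called higher outside these groups had varied roles. CPA4, a secreted carboxypeptidase, gave 15.9 and 123 CPM (7.74-fold, interval 6.10 to 9.90). SERPINE2, an inhibitor of thrombin and plasminogen activators, gave 62.6 and 208 CPM. CRYAB, the small chaperone alpha-B-crystallin, gave 106 and 323 CPM, whereas 17 of 22 measured heat shock and chaperone genes stood at or below 0 and CRYAB was the only one called. RGS5, a regulator of G-protein signalling known from pericytes, gave 78.3 and 222 CPM. NQO1, a quinone reductase and NRF2 target, gave 51.1 and 140 CPM, while SLC7A11, the cystine transporter and another NRF2 target, was called lower (199 and 82.2 CPM). SPP1, the secreted phosphoprotein osteopontin, gave 218 and 481 CPM. RRM2, a subunit of ribonucleotide reductase, gave 42.0 and 97.6 CPM.

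Among the genes lower in T2.5, 5 belonged to the immediate early list. FOSB gave 183 CPM in T1 (975 UMIs) and 39.0 CPM in T2.5 (122 UMIs), 4.68-fold lower (interval 3.87 to 5.70). JUN gave 376 and 144 CPM (2.62-fold lower, interval 2.36 to 2.90). JUNB gave 303 and 122 CPM (2.48-fold lower, interval 2.22 to 2.78). These 3 genes encode subunits of AP-1, the dimeric factor that FOS and JUN proteins form. FOS gave 259 and 108 CPM (2.39-fold lower, interval 2.12 to 2.70). EGR1, a zinc-finger factor, gave 1038 and 490 CPM (2.12-fold lower, interval 1.999 to 2.24). Of 14 measured members 5 were called lower and 0 higher, 11 stood at or below 0, and the median was -0.85. DUSP6 (difference -0.99) and IER2 (-0.94) were just under the line, while JUND (0.15), IER3 (0.16) and CYR61 (0.02) were near 0. Outside the list, NFKBIZ, an inducible nuclear IkB protein, gave 53.2 and 13.1 CPM (4.06-fold lower, interval 2.92 to 5.77), and CCNL1, a cyclin of RNA processing, gave 153 and 53.8 CPM.

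Of 24 measured interferon-stimulated genes, 21 stood at or below 0, 2 were called lower and 0 higher, and the median was -0.45. IRF1, an interferon-induced transcription factor, gave 71.6 and 26.9 CPM (2.66-fold lower, interval 2.10 to 3.41). IFIT1, an RNA-binding antiviral protein, gave 85.0 and 34.9 CPM (2.44-fold lower, interval 1.97 to 3.03). IFI44L gave 317 and 173 CPM. IFI6, a mitochondrial interferon-induced protein, went the other way, with 1096 and 1668 CPM. Of the MHC class I presentation list, whose HLA genes interferon also induces, 10 of 11 measured members stood above 0 and none was called. HLA-C gave 185 and 354 CPM and HLA-B 375 and 656 CPM, with PSME1 alone below 0 (difference -0.59). The members above 0 include the chaperones CALR (0.48), CANX (0.45) and PDIA3 (0.19).

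Of 21 measured axon guidance and adhesion genes, 1 was called lower (PLXNA4) and 0 higher, 16 stood at or below 0, and the median was -0.35. PLXNA4, a semaphorin co-receptor, gave 324 and 129 CPM (2.52-fold lower, interval 2.26 to 2.81). SLIT2, a secreted guidance ligand, gave 668 and 333 CPM (difference -0.98). SLIT2 was not past the limit, and L1CAM stood at 0.92. Other genes called lower had varied roles. SORL1, a sorting receptor, gave 297 and 116 CPM. PLPP3, a lipid phosphatase of the cell surface, gave 1045 and 413 CPM (2.53-fold lower, interval 2.38 to 2.69). GPC3, the heparan sulphate proteoglycan glypican-3, gave 149 and 64.0 CPM. DAPL1 gave 156 and 52.5 CPM, and HMCN1, a large extracellular protein, 77.4 and 24.6 CPM.

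No measured gene of PARP function or break repair was called. PARP1, the main target of olaparib, gave 445 and 307 CPM (1.45-fold lower, interval 1.35 to 1.56). BRCA2 gave 22.1 CPM from 118 UMIs in T1 and 15.4 CPM from 48 UMIs in T2.5, under the 50 CPM minimum. Of 12 measured genes of homologous recombination and break repair none was called, the median was -0.24, and ATR (-0.70), RIF1 (-0.66) and ATM (-0.42) stood lowest. The 8 measured PARP and base excision repair genes gave no call and a median of -0.03. CDKN1A, the p53 target p21, gave 57.9 and 55.7 CPM. NMNAT2, an enzyme of NAD synthesis, gave 374 and 244 CPM. Lineage factors stood below 0 without a call: WT1 gave 82.4 and 57.6 CPM and MECOM 71.9 and 33.6 CPM (difference -0.91), and the Mullerian list had a median of -0.23 over 12 genes. Glycolytic genes had a median of 0.36 (0 of 14 called), with LDHA highest at 0.69. Histone transcripts had a median of -0.33 over 10 genes, with HIST1H4C, an H4 gene of S phase, at 1290 and 713 CPM. Cytoplasmic ribosomal protein genes summed to 136891 CPM in T1 and 119785 in T2.5, with none of 76 called and a median of -0.14.

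In cell-cycle genes, the G1/S list leaned upward and the mitotic list did not. Of 18 measured G1/S genes, 15 stood above 0, RRM2 was called and the median was 0.33. In cells to which the authors' deposited metadata assigns no state, RRM2 gave 96.0 and 214 CPM. In the cells with a state it gave 7.09 and 9.01 CPM. TK1, thymidine kinase, gave 98.2 and 202 CPM over all cells. The 32 mitotic genes had a median of 0.10 with none called, CENPF lowest (461 and 273 CPM) and BIRC5 highest at 0.61. MKI67 gave 113 and 88.3 CPM. Each cell was also thinned to 1000 UMIs, which kept 1883 T1 cells and 947 T2.5 cells. At least 3 G1/S UMIs were then found in 27.6% of T1 cells (interval 25.6 to 29.7) and 41.8% of T2.5 cells (interval 38.7 to 45.0). Without thinning the shares were 54.9% and 58.0%, so the gap depends on the thinning. Thinning evens the depth and also leaves out shallow cells, 429 of T1 and 614 of T2.5, and the parts of the 2 were not tested. For mitotic genes the thinned shares were 47.7% and 60.8% and the unthinned ones 77.2% and 75.6%, opposite in order, and the summed mitotic levels were 4359 and 4580 CPM.

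Per cell, the UMIs of ACTA2, TAGLN, MYL9 and TPM1, the 4 called genes of their list, averaged 1.17 per thinned T1 cell and 4.28 per thinned T2.5 cell. At least 3 such UMIs were found in 12.5% of T1 cells (interval 11.02 to 14.1) and in 56.5% of T2.5 cells (interval 53.3 to 59.7). The cells in the top 10% for these UMIs held 47.2% of them in T1 and 36.5% in T2.5, a share that also falls with a higher mean per cell. An ACTA2 UMI was found in 7.06% of thinned T1 cells and 35.5% of thinned T2.5 cells (13.9% and 44.4% before thinning, at median depths of 2188 and 1145). No cell type known to lack ACTA2 is present to give its background from free RNA. The matrix sum (COL1A1, COL3A1, FN1, COL5A1 and BGN) reached at least 3 UMIs in 17.3% and 40.7% of cells. The immediate early sum (FOSB, JUN, JUNB, FOS and EGR1) reached 3 in 36.7% of T1 cells (interval 34.6 to 39.0) and 8.03% of T2.5 cells (interval 6.37 to 9.94). Each of these sums holds only genes called in these same cells, so the gaps between T1 and T2.5 are no separate support. Among T2.5 cells, those with an ACTA2 UMI held 3286 CPM of TAGLN and 1369 of MYL9, against 1182 and 714 in those without. In T1 the same split gave 1895 and 402 CPM of TAGLN.

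**Figure D3:**
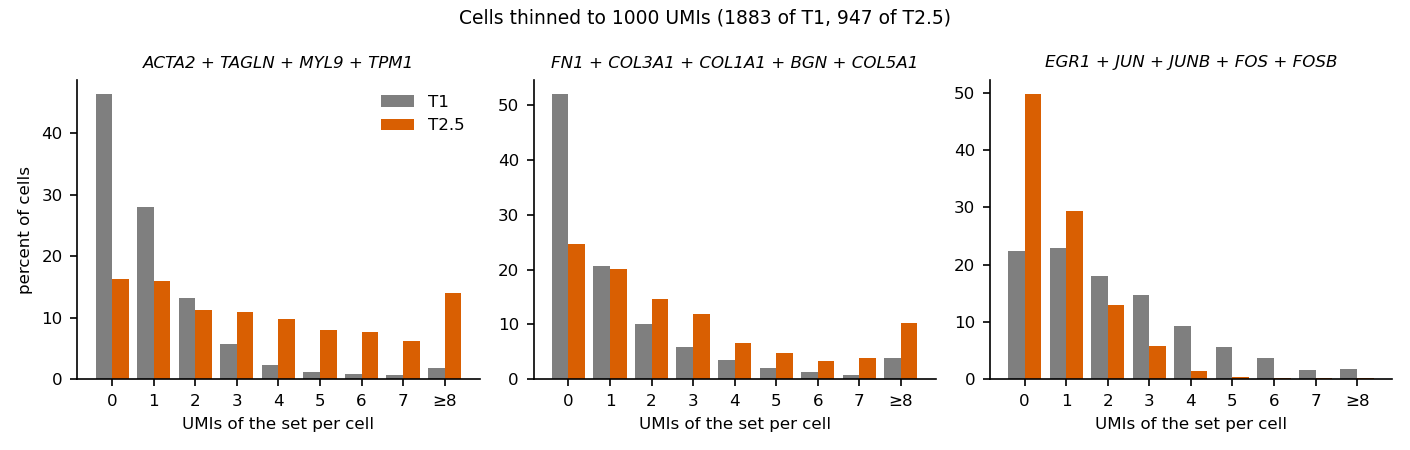
Percent of cells (y axis) by the number of UMIs of each gene set per cell (x axis) after each cell was thinned to 1000 UMIs, with 1883 T1 cells in grey and 947 T2.5 cells in orange. For the contractile set 46.4% of T1 cells and 16.3% of T2.5 cells held 0 UMIs, and for the immediate early set 22.4% and 49.7%. Each set holds only genes called in these same cells.

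The authors' deposited metadata assigns a state to some of the cells. It lists 1223 T1 cells, all in state S1, and 760 T2.5 cells, of which 626 were S1 and 134 S2. Listed cells held cell-cycle transcripts less often than unlisted ones. After thinning, at least 3 G1/S UMIs were found in 10.2% of listed and 54.7% of unlisted T1 cells. In T2.5 the shares were 20.6% and 67.1%. State shares and comparisons below cover the listed cells only. The S2 share in T2.5 was 17.6% (interval 14.99 to 20.5), and the 0 of 1223 listed T1 cells allow a share of up to 0.245%, the share that 3 cells would give (the interval reaches 0.301%). Within S1 cells alone all 36 higher genes stood above 0 and 16 were still 2-fold higher. All 43 lower genes stood below 0 and 33 were still 2-fold lower. The S1 cells gave 60.8% of the T1 UMIs and 45.8% of the T2.5 UMIs behind the calls. The kept direction is therefore no separate support. Of the 4 called contractile genes, 3 were still past the 2-fold limit inside S1: ACTA2 gave 108 and 436 CPM, TAGLN 486 and 1367, and MYL9 281 and 861. TPM1 was not, with 241 and 426 CPM (difference 0.80). The collagens differed less inside S1: COL3A1 gave 390 and 532 CPM in S1 cells and 2539 CPM in the S2 cells of T2.5, COL1A1 63.2 and 132 against 512, and BGN 34.2 and 46.8 against 250. No member of the collagen list was called within S1, and its median there was 0.44. FN1 gave 1106 and 2196 CPM in S1 cells and 3272 in S2. CRYAB went against the pattern, with 109 and 381 CPM in S1 and 148 in S2. The immediate early genes were below their T1 level in both states of T2.5: FOSB gave 215 CPM in T1 S1 cells, 51.7 in T2.5 S1 cells and 32.0 in S2, and EGR1 gave 1207, 528 and 605. HLA-B (difference 1.04) and HLA-C (1.12) passed the 2-fold limit when S1 cells alone were compared. Between the 2 states of T2.5, 62 of the 4009 genes (1.55%) were at least 2-fold higher in S2 and 135 (3.37%) lower. Of the 36 genes higher in the step 18 were higher in S2 and 2 lower, and of the 43 lower genes 0 were higher in S2 and 9 lower. These counts reuse the T2.5 cells and are a description only.

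Depth per cell differed between the populations, so levels were also read in bands of UMIs per cell. The bands narrow the gap in depth but do not remove it. Median UMIs in T1 and T2.5 were 985 and 937 under 1500 UMIs and 3792 and 5347 from 3000. From 1500 to under 3000 they were 2316 and 1930, with 241 T2.5 cells. Cells under 1500 UMIs made up 35.6% of T1 and 65.3% of T2.5. In every band all 36 higher genes stood above 0 and all 43 lower genes below 0. The bands are parts of the cells that gave the calls, so the kept direction is no separate support. The number still 2-fold higher was 21 under 1500 UMIs, 33 from 1500 to under 3000 and 30 from 3000, and the number still 2-fold lower was 15, 42 and 32. ACTA2 gave 217 and 848 CPM under 1500 UMIs, 98.0 and 1144 from 1500 to under 3000, and 117 and 616 from 3000. FOSB gave 83.7 and 28.1, 227 and 30.5, and 183 and 48.3 CPM in the same bands. EGR1 gave 637 and 362, 1190 and 404, and 1061 and 595. Within T1 alone, 40 of the 43 lower genes had higher levels in cells of at least 3000 UMIs than in those under 1500, by a median of 0.44, against a median of -0.05 over all measured genes. For the 36 higher genes the median was -0.17. Beyond these bands, the part of depth per cell in the differences was not tested.

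**Figure D4:**
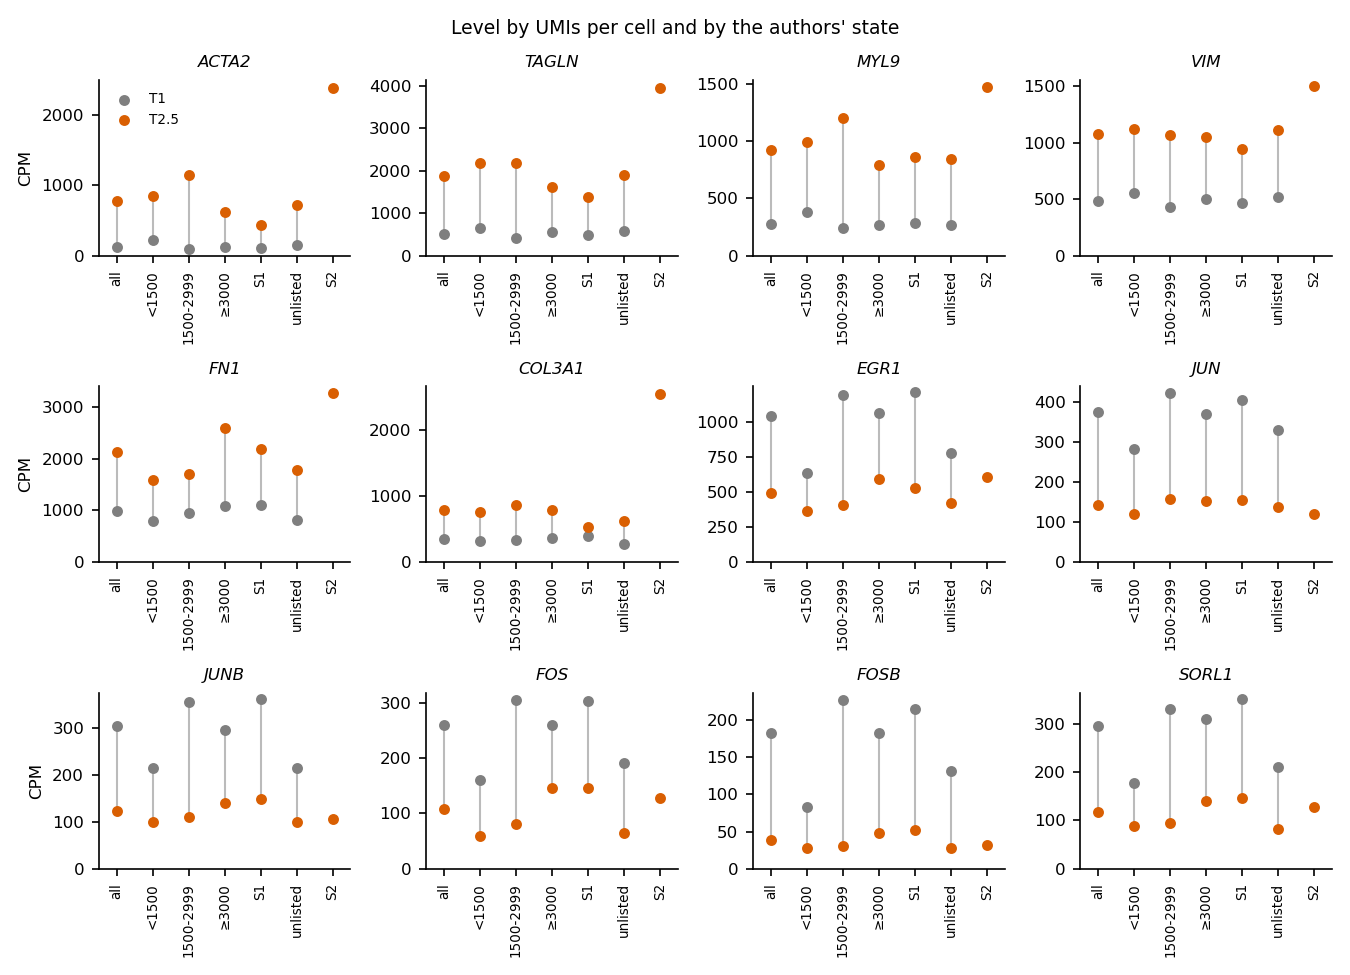
CPM (y axis) of 12 genes in T1 (grey) and T2.5 (orange) over all cells, in 3 bands of UMIs per cell, in cells of state S1, in cells that the authors' table does not list, and in S2 cells of T2.5. Grey and orange points keep their order in each band for each gene; COL3A1 nears equality only in S1 cells, at 390 and 532 CPM.

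Of the 43 lower genes 17 span over 100 kb of genome (39.5%), against 19.7% of measured genes and 4 of 34 higher genes with a position. Genes spanning over 100 kb had a median difference of -0.17 and those up to 10 kb of 0.12. PTPRD (236 and 95.3 CPM) and PLXNA4 are examples of long genes, while FOSB, JUN, JUNB, FOS and EGR1 are short. No label or file header says how reads from near-identical copies were assigned, and the values of such genes are uncertain. MTRNR2L12, a nuclear copy of mitochondrial ribosomal RNA, gave 30329 and 12487 CPM and MTRNR2L8 gave 11657 and 5568. All such copies together took 4.75% of UMIs in T1 and 2.295% in T2.5. The mitochondrial genes MT-ATP8 (3798 and 1508 CPM) and MT-ND6 (276 and 115 CPM) overlap or lie against other mitochondrial genes, and their values are uncertain for that reason. POTEE, POTEI and PTGDS, called higher, share 80.2%, 11.1% and 66.0% of the 31-base words of their last 500 transcript bases with other genes. Chromosome medians ran from -0.09 on chromosome 13 to 0.15 on chromosome 20.

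Levels in the other populations show where the step sits in the escalation. ACTA2 gave 45.7 CPM in C, 126 in T1, 773 in T2.5 and 1266 in T5, then lay between 174 and 1051 from T10 to T320. COL3A1 gave 20.0, 346, 792 and 1950 CPM over the same 4 populations and was listed at 0 in T320. VIM gave 636, 487, 1077 and 1179 CPM and 2155 in T320. MYL9 was highest in T2.5 of all 10 populations (921 CPM), with 696 in T5 and 146 in T10. EGR1 gave 185, 1038, 490 and 491 CPM over the first 4 populations and 2057 in T40. FOSB gave 36.7, 183, 39.0 and 62.2 CPM and 800 in T40. PLXNA4 gave 10.8, 324, 129 and 174 CPM and was listed at 0 in T320. EGR1 and FOSB thus had no steady course with dose. The genes at least 2-fold lower in T2.5 than in both neighbours were FOS (259 in T1, 108 in T2.5 and 264 CPM in T5), PKDCC (80.7, 30.7 and 81.5) and PLPP3 (1045, 413 and 874). The genes at least 2-fold higher in T2.5 than in both were POTEE, POTEI and PTGDS, whose sequences are shared with other genes.

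**Figure D5:**
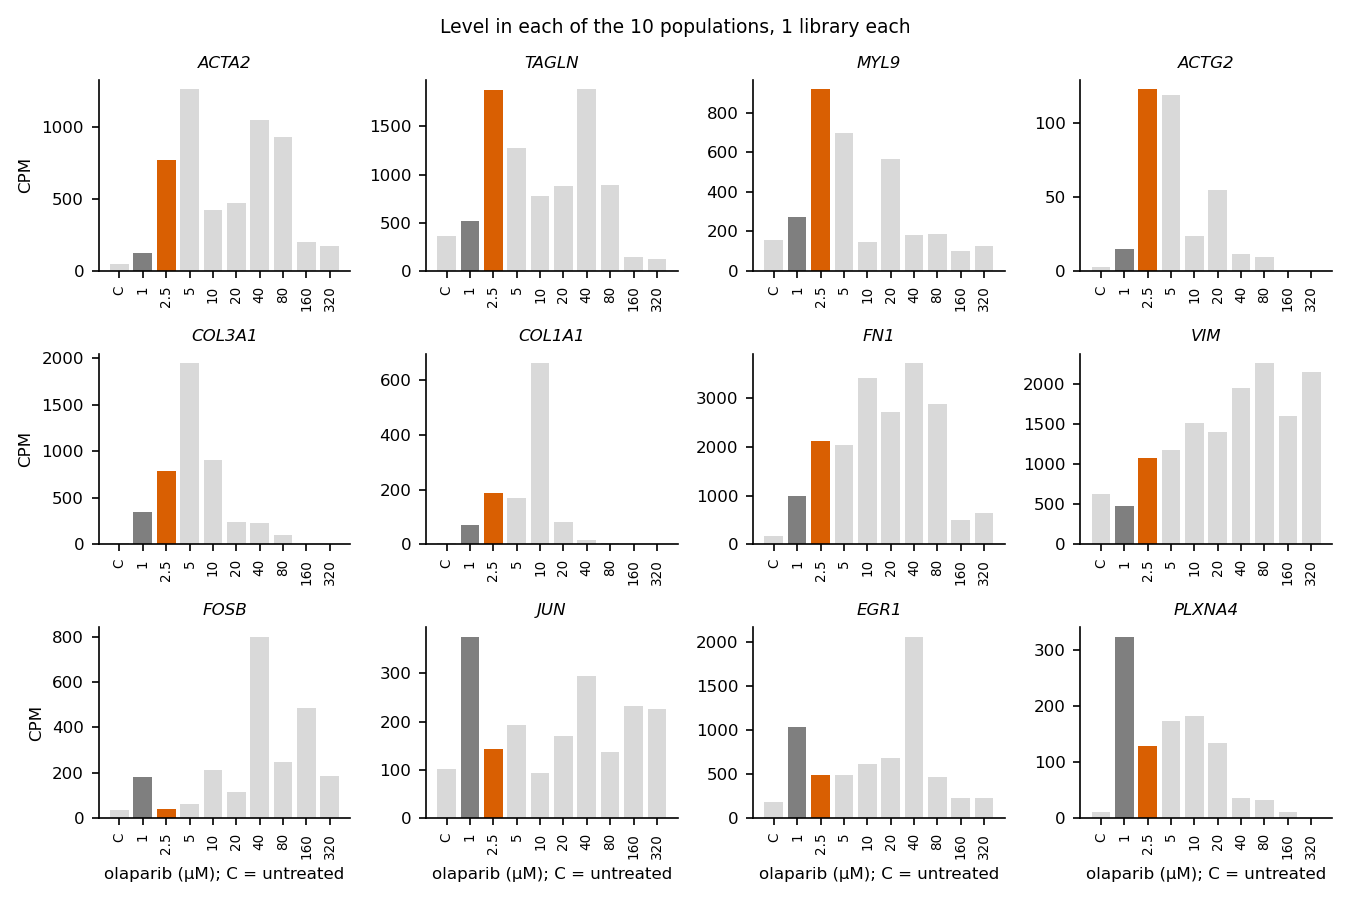
CPM (y axis) of 12 genes in each of the 10 populations (x axis, olaparib dose in µM), 1 library each, with T1 in dark grey and T2.5 in orange. MYL9 is highest in T2.5 at 921 CPM, COL3A1 in T5 at 1950, and FOSB and EGR1 in T40 at 800 and 2057.

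C and T5 share no library with the step, so their difference can be set beside it. Among the 4009 genes, 277 (6.91%) were at least 2-fold higher in T5 than in C and 142 (3.54%) lower. Of the 36 genes higher in T2.5 than in T1, 24 were higher in T5 than in C and 3 were lower, with a median difference of 1.86. Of the 43 genes lower in T2.5, 9 were higher in T5 than in C and 2 lower, with a median of 0.24. The count of 2 in 43 is near the background share of lower genes (3.54%), whereas 24 in 36 is far above the background share of higher ones (6.91%). In the opposite direction, 9 in 43 is also above the background share of higher genes. The count of 3 in 36 is above that of lower genes, from few genes. Some called genes passed the 50 CPM minimum only through the population where they were high. ACTG2 (14.8 CPM in T1) and CPA4 (15.9) passed through T2.5, and FOSB (39.0 CPM in T2.5) through T1. The background genes were not chosen by a difference, so these counts are a description only, and the part of the filter was not tested.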

How the data were processed

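The UMI counts per gene and cell were deposited by the authors without normalization, for 12373 genes, and the metadata table deposited by the authors gives UMIs per cell as a count, the mitochondrial share as a fraction and a state. Per the submitters' processing notes the builds were hg38 and GRCh38 and Seurat 2.3.2 was used. For the aligner, annotation, cell filters and assignment of states: not given in the sources used here. All cells were used. Doublets were not called and remain where the authors' filters passed them.

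UMIs were summed per population, scaled by the library total to CPM and compared as log2(CPM + 10). Folds of CPM have exact conditional Poisson intervals and shares have Clopper-Pearson intervals. They cover counting error only. Measured genes needed 50 CPM or more in T1 or T2.5, besides 100 UMIs or more summed over the series. Depth per library was 5338688 and 3125808 UMIs. Alternatives were other scalings (edgeR 4.0.16 TMM, DESeq2 1.42.0), added CPM, minimums, cell subsets and thinning to 1000 UMIs (seed 7). The bands of UMIs per cell and the CArG search were added after the data were seen. Calculations used Python 3.11.15 with numpy 2.4.6, scipy 1.17.1 and pandas 2.3.3, and were tested on simulated data. GENCODE 29 (GRCh38) gave the positions of 12179 genes and the transcript ends, and promoters came from RefSeq GRCh38.p14. Of the measured genes, 3231 matched a promoter by symbol.

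Named genes were the 15 highest and 15 lowest differences, the 6 highest and 6 lowest among genes with at least 500 CPM, the 3 largest in each list, up to 4 genes in each direction beyond both T1 and T5, and PARP1, BRCA2, CDKN1A, MKI67, VIM, EPCAM, PAX8, WT1 and ABCB1, which is not analysed here. Other members were named after their values were seen. The members and the gene lists were chosen with earlier results of these data known. Each population is 1 library here, so no test between them was possible.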

Additional observations from a re-analysis of the deposited data

How the results depend on the processing

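The counts of 36 higher and 43 lower genes depend on the added CPM, the minimum level and the cells used. With 1 CPM added, 67 genes were lower, and with 50 CPM added 12 were higher and 12 lower. With a minimum of 200 CPM 14 were higher and 17 lower, and with no minimum 62 were higher. With cells thinned to 1000 UMIs 74 were lower, and among cells of 1500 to under 3000 UMIs, a band set after seeing the data, 116 were higher and 160 lower, from fewer UMIs. The cause of these shifts was not tested, beyond the number of genes that each minimum admits. Under every other setting run, TMM and DESeq2 scaling included, the counts stayed within 1.5 times of 36 and 43. All 48 named genes past the limit that each setting measured kept their direction. The settings reuse the cells that gave the calls, so this is no separate support. Of the 48, 47 stayed past the limit with either scaling, 23 with 50 CPM added, and of 45 measured in S1 cells 34 did. No paired analysis was possible because each population is 1 library. The depth of T2.5 limits genes near 50 CPM, and with 1 library per dose the spread between cultures is unknown.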
